A study of Rattus norvegicus with 4 samples.

Results

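A set of 10 genes, most of them best known from gut epithelium, was followed in rat pancreas. The rats' diet was low (FeD), adequate (FeA) or excessive (FeO) in iron. The genes were Prap1, Lgals4, Tm4sf5, Cdh17, Krt20, Cdhr5, Alpi, Creb3l3, Hsd17b2 and Vil1. The 10 genes, of 19308 named genes on the array, have 13 of its 30367 gene probes. These were found by gene symbol, and each probe was kept apart because Lgals4, Cdhr5 and Alpi have 2 probes each. The genes were put together because most of them were low in the same FeD and FeO ratios that are given here, so these values describe the genes and test nothing. Male Sprague-Dawley rats, weanlings at the start, ate for 3 weeks a purified diet with 5 ppm (FeD), 35 ppm (FeA) or 20275 ppm (FeO) iron, and the labels name no other treatment or genetic change. All 3 diets had extra sucrose, and the rats were fasted overnight before the pancreas was taken. The pancreatic RNA of the 6 rats of a diet made up 1 pool. Each two-colour array read the FeA pool beside the FeD or the FeO pool, and the second array of a comparison had the dyes exchanged. A diet was therefore 1 sample, the 2 arrays of a comparison measured the same pools again, and no test of a diet was possible. Both comparisons share the FeA pool.

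Absorptive cells of the intestine carry a brush border, a dense layer of microvilli held up by actin bundles and joined at the tips by cadherin-like proteins. Enzymes such as alkaline phosphatase sit in that membrane, while galectins and fatty acid binding proteins serve the traffic of lipid and membrane cargo inside the cell. In the normal pancreas acinar cells, which make digestive enzymes, supply most of the RNA, with ducts and islets as smaller parts. Transcripts of gut-type epithelium are thus no defining feature of pancreatic RNA.

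RefSeq promoters (rat assembly GRCr8) were at hand for 8 of the 10 genes. Printed are the 4 that hold a short letter run known from CDX or HNF4 factors, which are regulators of intestinal genes. The letters searched, on both strands of the 250 bases before each gene's start, were chosen after the promoters had been looked at. They were TTTATG for factors of the CDX family and CAAAGTC for HNF4. For GATA factors they were TGATAA as one form, with AGATAA as the other form. The TATA box was searched as TATAAA. Each line gives the bases 5′ to 3′ on the gene's strand, with matches in capitals.
Lgals4 (chr1:93252035-93252284, plus strand): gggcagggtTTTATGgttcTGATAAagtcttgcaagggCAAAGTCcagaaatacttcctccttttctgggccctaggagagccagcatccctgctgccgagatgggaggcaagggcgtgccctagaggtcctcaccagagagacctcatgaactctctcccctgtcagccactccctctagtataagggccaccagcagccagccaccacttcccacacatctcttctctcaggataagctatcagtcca
Alpi (chr9:95224781-95225030, minus strand): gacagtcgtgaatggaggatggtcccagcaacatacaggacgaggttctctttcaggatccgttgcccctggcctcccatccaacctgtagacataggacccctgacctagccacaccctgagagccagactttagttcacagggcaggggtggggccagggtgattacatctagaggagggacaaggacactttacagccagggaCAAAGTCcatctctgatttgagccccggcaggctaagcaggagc
Creb3l3 (chr7:9273070-9273319, plus strand): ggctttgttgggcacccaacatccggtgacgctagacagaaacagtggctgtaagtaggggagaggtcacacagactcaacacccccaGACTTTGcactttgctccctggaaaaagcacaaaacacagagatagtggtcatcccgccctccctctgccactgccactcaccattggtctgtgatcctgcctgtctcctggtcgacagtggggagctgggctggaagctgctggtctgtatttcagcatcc
Cdhr5 (chr1:205811093-205811342, minus strand): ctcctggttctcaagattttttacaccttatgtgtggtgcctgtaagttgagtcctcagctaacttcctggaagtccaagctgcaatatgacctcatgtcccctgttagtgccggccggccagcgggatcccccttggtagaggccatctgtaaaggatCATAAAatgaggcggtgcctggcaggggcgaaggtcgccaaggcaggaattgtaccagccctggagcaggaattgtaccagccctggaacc
The HNF4 run was found in 3 of the 8 promoters (Lgals4, Alpi and Creb3l3), and in 3.95% of all 33469 promoters of the same length. The CDX run was found in 2 (Lgals4 and Cdhr5), against 11.4% of all promoters. TGATAA stood in 2 of the 8 promoters (Lgals4 and Tm4sf5) against 7.97% of all, AGATAA in 1 (Prap1) against 10.3%, and TATAAA in 1 (Krt20) against 12.9%. In Lgals4 the CDX run, a GATA run and the HNF4 run lay close together, from base -241 to base -206 before the start. None of the searched runs overlapped another in the printed promoters, and the Vil1 promoter held none of these letters. The 8 promoters held 47.2% (Krt20) to 64.0% (Vil1) of G and C, against a median of 51.2% over all promoters. A match is a description of the letters and not a measured binding site.

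In FeD pancreas, 9 of the 10 genes had at least 1 probe at a log2 ratio of -1 or lower, and Prap1, Lgals4, Alpi and Tm4sf5 reached the size criterion of -2. The same count of 9 genes was at -1 or lower in FeO pancreas, where Prap1, Lgals4 and Alpi reached -2. Vil1 was the gene without such a ratio in either comparison. The ratio is diet over FeA, so a log2 ratio of -1 means a halved signal, and the mean of both arrays had to pass with the same sign on each. At -2 or lower stood 5 of the 13 probes in FeD, where 0.0971% of the 17513 probes tested did, and 4 of the 13 in FeO, where 0.137% of 18315 did. At -1 or lower stood 10 of the 13 probes in each comparison, against 0.246% of the probes tested in FeD and 0.497% in FeO. Below 0 on both arrays were 11 of the 13 in each, against 21.5% in FeD and 24.1% in FeO. Nothing is read from these counts, because the genes were picked from these ratios. The median over the 13 probes was -1.45 in FeD and -1.73 in FeO, and the median over all probes tested was 0.01 in each. In bulk RNA, fewer cells of a type and less RNA per cell cannot be told apart.

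**Figure D1:**
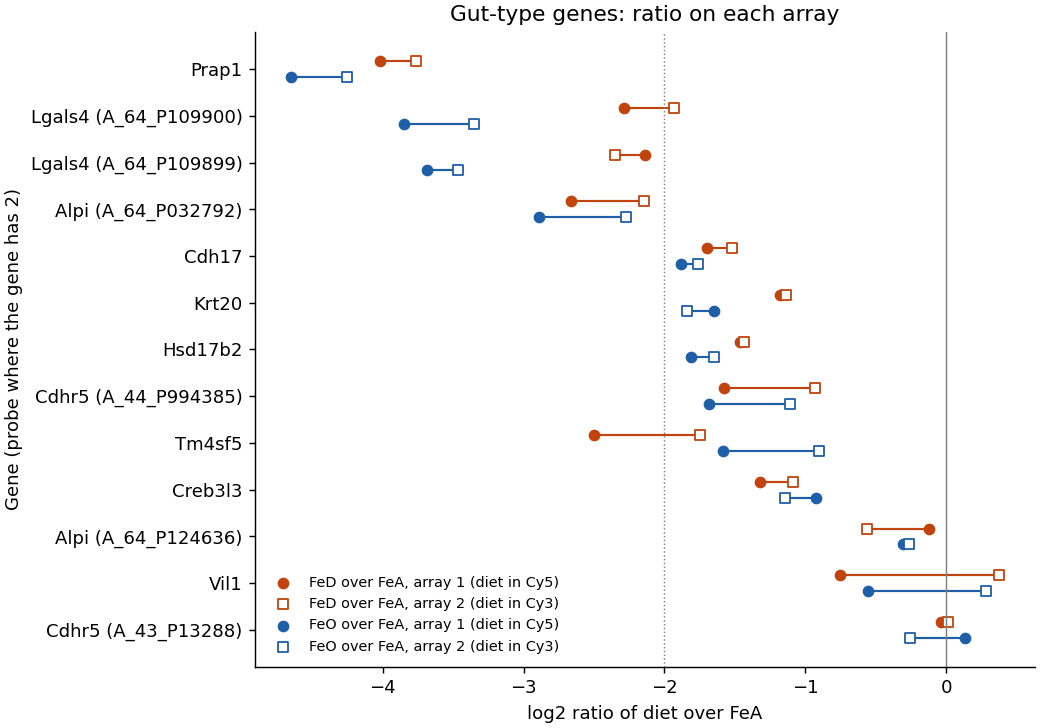
Log2 ratio of diet over FeA (x axis) for each of the 13 probes (y axis), with a filled circle for array 1, an open square for array 2 and a line joining the 2 arrays of a comparison. FeD is in orange-red and FeO in blue, the dotted line marks -2, and 10 probes lie at -0.90 or lower on every array, while Vil1, 1 Alpi probe and 1 Cdhr5 probe lie near 0.

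The secreted protein Prap1, made in the intestinal epithelium, had the lowest ratio of the 10 genes. Its spot signal, before any correction, was 1550, 2583, 1341 and 2329.5 in FeA on the 4 arrays, over local backgrounds of 50 to 83.5. In the diet pools the spot read 223.5 and 111 in FeD and 130 and 87 in FeO, over local backgrounds of 51.5 to 89.5. After normalization the level (log2 intensity) was 10.86, 11.01, 10.84 and 10.93 in FeA, 6.84 and 7.24 in FeD, and 6.18 and 6.68 in FeO. All 4 FeA readings lay above all readings of the other 2 pools, and both FeO readings lay below both FeD readings. The log2 ratio was -4.02 and -3.77 in FeD, a mean 14.9-fold lower signal, and -4.65 and -4.25 in FeO, 21.9-fold lower. Among the probes tested it ranked 3 from the lowest in FeD and 4 from the lowest in FeO.

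Galectin-4 (Lgals4), a lectin of the digestive tract that binds sugars on membrane proteins and lipids, was measured by 2 probes to the same transcript. By probe A_64_P109900 the level was 10.54, 10.31, 10.50 and 10.42 in FeA, 8.25 and 8.38 in FeD, and 6.65 and 7.07 in FeO. By probe A_64_P109899 it was 9.76, 10.12, 9.80 and 9.99 in FeA, 7.62 and 7.77 in FeD, and 6.11 and 6.53 in FeO. Both probes gave the order FeA, FeD, FeO from high to low, with no overlap between the readings of any 2 pools. The ratios were -2.29 and -1.93 by the first probe and -2.14 and -2.35 by the second in FeD. In FeO they were -3.85 and -3.35 by the first probe and -3.68 and -3.47 by the second, and the second was well above background in FeO on 1 of the 2 arrays. The probes thus agree within the gap between arrays, at 4.32-fold and 4.74-fold lower in FeD and 12.2-fold and 11.9-fold lower in FeO. The mean ratio in FeO minus that in FeD was -1.49 and -1.33, the largest gaps between the diets among the 13 probes.

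The membrane protein Tm4sf5 belongs to the transmembrane superfamily that organises other membrane proteins. Under the background correction used for these values, it was the only one of the 13 probes with both FeO ratios above both FeD ratios. Its level was 8.68, 8.60, 8.81 and 8.55 in FeA, 6.17 and 6.85 in FeD, and 7.22 and 7.65 in FeO. FeA was highest, FeO lay between, and FeD was lowest, with no overlap. The ratio was -2.50 and -1.75 in FeD (4.36-fold lower) and -1.58 and -0.90 in FeO (2.37-fold lower). The 2 arrays of each comparison lay further apart here than for most of the other probes.

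**Figure D2:**
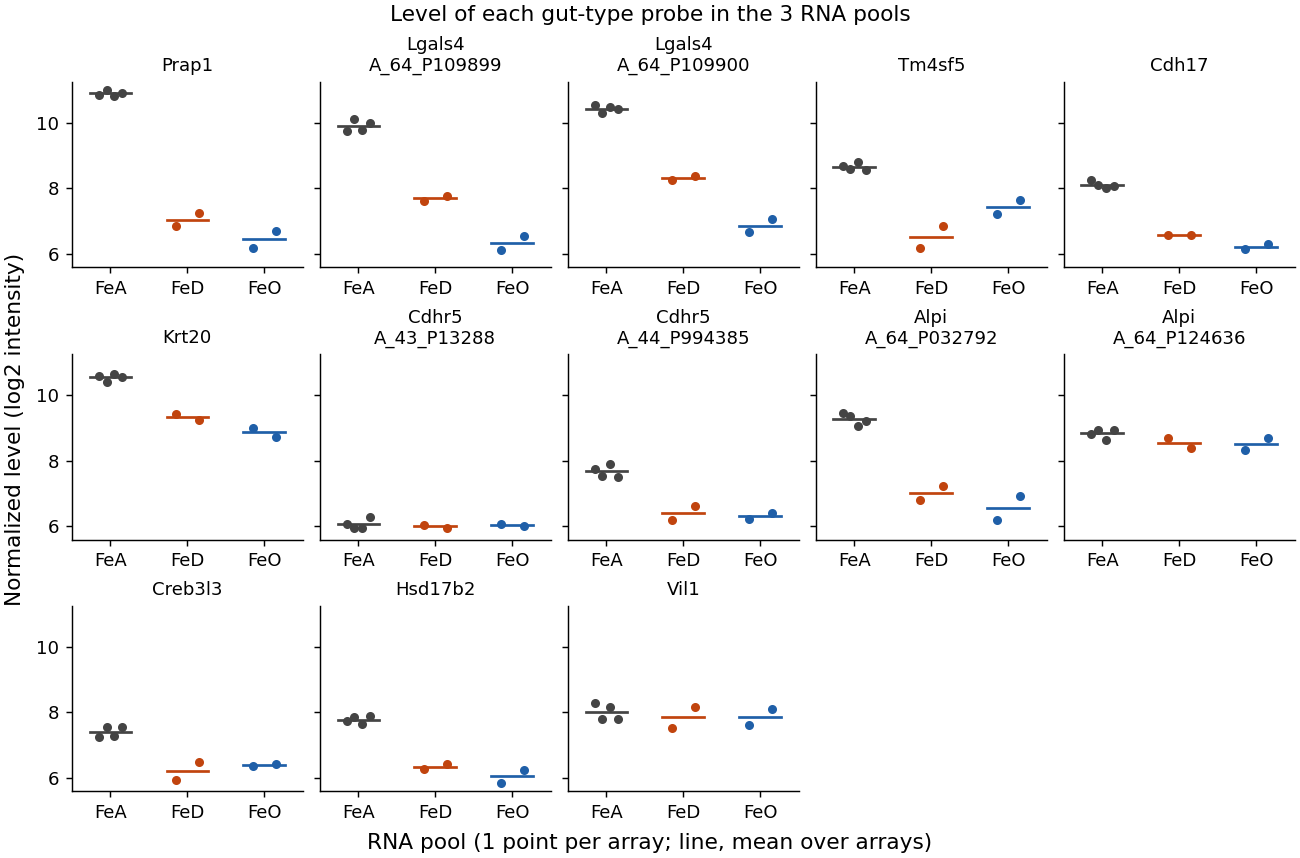
Normalized level (log2 intensity, y axis) of each of the 13 probes in the FeA, FeD and FeO pools, with 1 point per array and a line at the mean. FeA was read on 4 arrays and each other pool on 2, and Prap1, Lgals4 and Cdh17 step down from FeA to FeD to FeO, while Tm4sf5 is lowest in FeD.

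The adhesion molecules were lower in both diets, and their signals came near the background there. Cdh17, the liver-intestine cadherin that joins neighbouring epithelial cells, had a level of 8.26, 8.11, 8.01 and 8.06 in FeA, 6.56 and 6.58 in FeD, and 6.13 and 6.30 in FeO. The FeA readings lay above the others, and both FeO readings lay below both FeD readings. The ratio was -1.70 and -1.52 in FeD (3.06-fold lower), where the probe was well above background on 1 of 2 arrays. In FeO it was -1.88 and -1.76, and since neither FeO reading was well above background, the signal was at least 3.54-fold lower. Such a bound sets the mean FeA level against the higher of the probe's own reading and the lowest level well above background on each array. For Cdh17 the probe's own readings were the higher, so this bound equals the fold of its mean ratio.

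Cdhr5, a mucin-like cadherin that links the tips of microvilli and is listed in the deposited tables under its older symbol Mucdhl, had 1 probe at -1 or lower and 1 that was not well above background. By probe A_44_P994385 the level was 7.76, 7.55, 7.91 and 7.50 in FeA, 6.18 and 6.61 in FeD, and 6.22 and 6.39 in FeO. The FeA readings lay above those of both diets, while the readings of FeD and FeO overlapped. The ratio was -1.58 and -0.93 in FeD (at least 2.39-fold lower) and -1.68 and -1.11 in FeO (at least 2.63-fold lower), with neither diet well above background on any array. Probe A_43_P13288, to the same transcript, was not well above background in any channel of any array. It is the 1 probe of the 13 that did not pass the filter on dim probes, and its ratios of -0.04, 0.01, 0.13 and -0.26 say nothing about the gene.

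The cytoskeletal genes differed from each other. Krt20, a keratin of the surface epithelium of the gut, was well above background in every channel, with a level of 10.60, 10.40, 10.65 and 10.58 in FeA, 9.43 and 9.26 in FeD, and 9.00 and 8.74 in FeO. No 2 pools overlapped, and the order was FeA, FeD, FeO. The ratio was -1.18 and -1.14 in FeD (2.23-fold lower) and -1.65 and -1.84 in FeO (3.35-fold lower). Villin (Vil1), which bundles the actin of microvilli, had a level of 8.28, 7.79, 8.16 and 7.81 in FeA, 7.53 and 8.16 in FeD, and 7.60 and 8.09 in FeO. The readings of the 3 pools overlapped. Its ratio changed sign with the dyes, at -0.76 and 0.38 in FeD and -0.55 and 0.28 in FeO, so these arrays give it no direction.

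Of the 2 enzymes, intestinal alkaline phosphatase (Alpi), which removes phosphate groups at the brush border, gave different answers by its 2 probes. By probe A_64_P032792 the level was 9.47, 9.38, 9.07 and 9.20 in FeA, 6.80 and 7.23 in FeD, and 6.18 and 6.93 in FeO. FeA lay above both diets, and the readings of FeD and FeO overlapped. The ratio was -2.67 and -2.15 in FeD (5.30-fold lower) and -2.89 and -2.28 in FeO (5.99-fold lower). By probe A_64_P124636, assigned to the same transcript and well above background in all 3 pools, the ratio was -0.12 and -0.56 in FeD and -0.31 and -0.26 in FeO. Its level was 8.63 to 8.96 in FeA, 8.71 and 8.40 in FeD, and 8.32 and 8.68 in FeO, so that the pools overlapped. The direction was shared and the size was not, at 1.27-fold lower in FeD and 1.22-fold lower in FeO by the second probe, and which probe follows the Alpi transcript was not tested.

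Hsd17b2, which oxidises estradiol and testosterone to less active steroids, had a level of 7.73, 7.84, 7.65 and 7.89 in FeA, 6.27 and 6.40 in FeD, and 5.84 and 6.24 in FeO. The 3 pools did not overlap, although the gap between the closest FeD and FeO readings was small. The ratio was -1.46 and -1.44 in FeD (2.74-fold lower), where 1 of 2 arrays was well above background. In FeO it was -1.81 and -1.65, with neither array well above background, so that the signal was at least 3.12-fold lower.

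The transcription factor Creb3l3, which is freed from a membrane and acts on lipid genes in liver and small intestine, had a level of 7.23, 7.56, 7.29 and 7.55 in FeA, 5.91 and 6.47 in FeD, and 6.36 and 6.41 in FeO. FeA lay above both diets, and FeD and FeO overlapped. The ratio was -1.32 and -1.09 in FeD, where neither array was well above background and the signal was at least 2.20-fold lower. In FeO it was -0.92 and -1.14 (2.05-fold lower), with 1 of 2 arrays well above background.

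**Figure D3:**
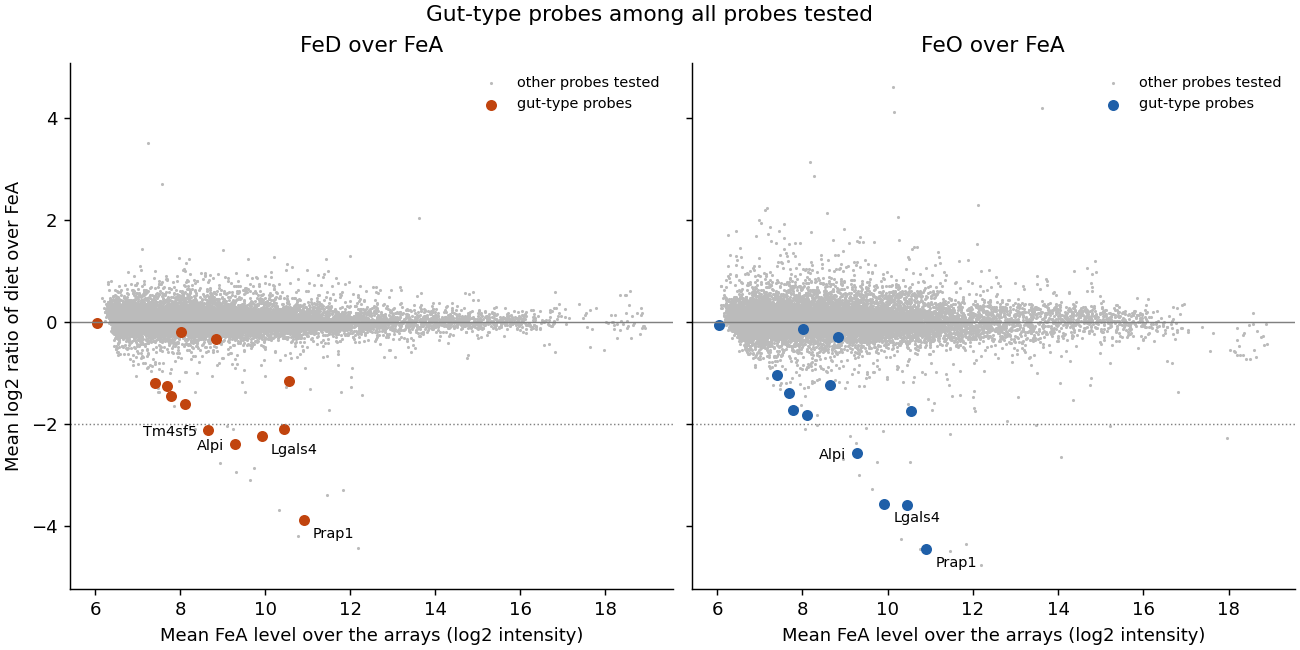
Mean log2 ratio of diet over FeA (y axis) against the mean FeA level in log2 intensity (x axis) for every probe that passed the filter on dim probes (grey) and for the 13 gut-type probes (coloured), FeD on the left and FeO on the right. The dotted line marks -2, and a low FeA level limits how far down a ratio can reach.

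Across the 13 probes, both FeO readings of the ratio lay below both FeD readings for 6 (Prap1, both Lgals4 probes, Cdh17, Krt20 and Hsd17b2), where 14.8% of 16951 probes tested in both comparisons did so. They lay above for 1 (Tm4sf5), where 14.3% did so, and overlapped for the other 6. This count sets the 2 diets against each other through the FeA pool they share, and it was made after the values were seen. It changed with the background treatment given below, and it holds Lgals4 by both of its probes. Cdh17 and Hsd17b2 were well above background in FeO on 0 arrays and Lgals4 probe A_64_P109899 on 1. Their order of the diets was therefore read near the background, and nothing is concluded from the count. The FeA readings of a member probe spread over 0.17 to 0.50 log2 units across the 4 arrays, against a median spread of 0.29 over all probes well above background in FeA on all 4. The gap between the 2 arrays of a comparison had a median of 0.25 in FeD and 0.39 in FeO over the 13 probes, against 0.22 and 0.23 over all probes tested. The mean ratio was larger in size than this gap in both comparisons for the 10 probes at -1 or lower. It was smaller than the gap for Vil1 and the dim Cdhr5 probe in both, and for the second Alpi probe in FeD.

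The spot signals before correction show how far each probe stood above its local background in the diet pools. The Lgals4 probe A_64_P109900 read 1226, 1615, 1059.5 and 1645.5 in FeA, and 524 and 225 in FeD over backgrounds of 82 and 51.5. In FeO it read 171 and 109 over backgrounds of 78 and 49, so a measurable signal was left in both diets. Krt20 read 1163 and 413.5 in FeD and 767.5 and 330 in FeO, against 1156.5 to 1864 in FeA. The Alpi probe A_64_P032792 read 420.5 to 848 in FeA, 210 and 111 in FeD and 129.5 and 100 in FeO, over diet backgrounds of 47 to 87.

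Tm4sf5 read 347 to 486 in FeA, 137 and 98 in FeD and 239 and 163.5 in FeO, over diet backgrounds of 48.5 to 84. Hsd17b2 read 177 to 303.5 in FeA, and its FeO signals of 103 and 70 stood over backgrounds of 80 and 49. Cdh17 read 214 to 356 in FeA, and its FeO signals of 125 and 74.5 stood over backgrounds of 84 and 51.5. For these dim probes a few units of signal decide the ratio. The Cy5 reading of a pool was higher than its Cy3 reading for the probes named here, before normalization.

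How the background was treated set the size of these ratios. The values above rest on a background correction that adds an offset of 50 to each signal, which draws the ratio of a dim spot towards 0. With an offset of 0 the member median was -2.42 in FeD and -2.45 in FeO, and with the scanner software's processed signals it was -2.98 and -3.50. By the processed signals, Prap1 was at -5.06 and -4.99 in FeD and -6.83 and -6.26 in FeO. Lgals4 was at -2.52 and -2.35 in FeD and -4.87 and -4.60 in FeO by A_64_P109900, and at -2.72 and -2.74 in FeD and -5.91 and -5.93 in FeO by A_64_P109899. The Alpi probe A_64_P032792 was at -3.57 and -3.44 in FeD and -4.77 and -3.91 in FeO. The Prap1 and Lgals4 probes had the same order of the diets as with the offset of 50. For this Alpi probe both FeO ratios now lay below both FeD ratios, where they had overlapped with the offset of 50. Creb3l3 was at -5.25 and -3.74 in FeD and -2.18 and -3.03 in FeO, Tm4sf5 at -4.49 and -2.87 in FeD and -2.07 and -1.47 in FeO, and Cdh17 at -2.94 and -3.57 in FeD and -4.53 and -5.47 in FeO. Both FeO ratios of Creb3l3 thus lay above both FeD ratios, where they overlapped with the offset of 50. Hsd17b2 moved most in FeO, to -3.75 and -4.65 in FeD and -6.04 and -5.15 in FeO, since its diet signal lies at the background. Krt20, well above background throughout, hardly moved, at -1.30 and -1.26 in FeD and -1.85 and -2.08 in FeO. At -2 or lower stood 9 of the 13 probes in FeD and 8 in FeO by the processed signals, and 9 and 7 with an offset of 0. Over all probes the counts rose as well. They were 17 in FeD and 25 in FeO with the offset of 50, 63 and 90 by the processed signals, and 28 and 42 with an offset of 0.

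**Figure D4:**
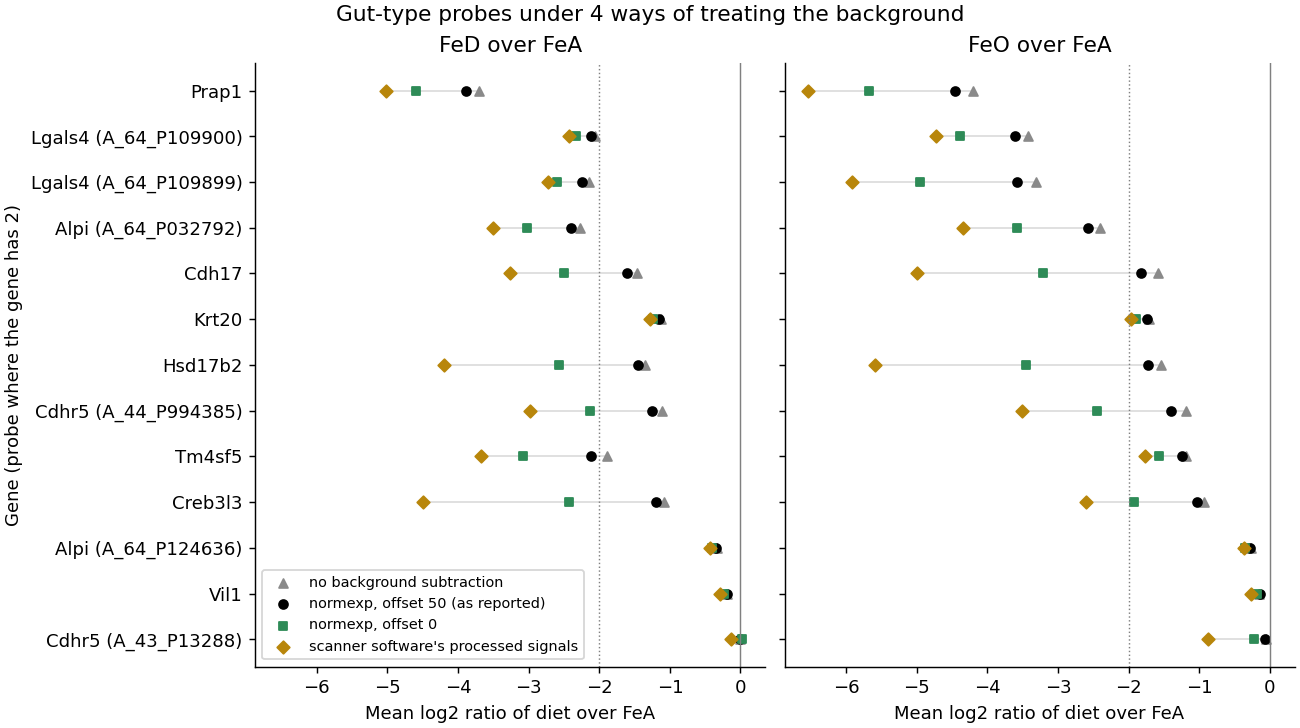
Mean log2 ratio of diet over FeA (x axis) of each of the 13 probes (y axis) under 4 ways of treating the background, FeD on the left and FeO on the right, each point the mean of 2 arrays. Krt20 stays in place, while dim probes such as Hsd17b2 and Cdh17 spread widely, and the processed signals give the lowest value for each of the 13 probes.

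The tissue was checked against lists of marker genes, chosen with earlier results of these arrays known, with the highest-signal probe standing for each gene. All 16 genes of the acinar list were well above background in FeA on all 4 arrays, among them the lipase Pnlip and the carboxypeptidase Cpa1. Of 36 genes of enterocyte absorption and the brush border on the array, 23 were well above background in FeA on all 4 arrays and 5 in no channel. Those 5 were Mgam, Mep1a, Slc2a5, Myo1a and Cldn15, and the sucrase gene Sis was not analysed here.

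The wider enterocyte list was lower in part. In FeD 4 of its 36 genes were at -2 or lower and 6 at -1 or lower, with a list median of -0.25. List medians here and below are over all genes of a list on the array, those not past the filter on dim probes included. In FeO the counts were also 4 and 6, with a median of -0.26. Over the 25 genes of the list that were tested in each comparison, the median was -0.45 in FeD and -0.39 in FeO. The lowest were S100g, a calcium-binding protein of absorptive cells, and Fabp1, a fatty acid binding protein of liver and intestine. S100g had a ratio of -4.39 and -4.49 in FeD and -4.83 and -4.71 in FeO, and was well above background throughout. Fabp1 had a ratio of -4.69 and -3.74 in FeD, and in FeO, where neither array was well above background, it was at least 21.8-fold lower. The intestinal fatty acid binding protein Fabp2 was in no diet pool well above background, and was lower by at least 6.76-fold in FeD and at least 6.32-fold in FeO. Apoa1, an apolipoprotein of liver and intestine, was at -3.17 and -2.71 in FeD, and in FeO its signal was lower by at least 7.95-fold. The paper reports that Fabp1, Fabp2 and Apoa1 could not be detected in pancreas by qRT-PCR, so that method did not reproduce their array ratios.

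Next came Guca2a (guanylin), a peptide that acts on gut fluid secretion, at -1.57 and -1.18 in FeD and -1.99 and -1.67 in FeO. Mogat2, which rebuilds fat in enterocytes, was lower by at least 2.45-fold in FeD and at least 2.33-fold in FeO. The other genes of the list lay between the apolipoprotein gene Apoa4, at -0.83 and -1.07 in FeD and -0.89 and -1.08 in FeO, and small ratios above 0. The highest were the peptidase genes Enpep, at 0.18 and -0.07 in FeD and 0.76 and 0.49 in FeO, and Dpp4, at 0.22 and -0.16 in FeD and 0.69 and 0.39 in FeO. The summed intensity of the list, the offset included, was 15045 to 16210 in FeA, 6769 and 6978 in FeD, and 6798 and 6772 in FeO. That sum gives most weight to genes of high level and does not speak for the list. S100g alone had a level of 12.07 to 12.25 in FeA, 7.68 and 7.75 in FeD, and 7.36 and 7.51 in FeO.

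Genes of other gut cells were lower in part. Of 10 goblet cell genes, which serve mucus, 3 were at -1 or lower in FeD and 4 in FeO, with medians of -0.57 and -0.65. Over the genes tested, 8 in FeD and 9 in FeO, the medians were -0.92 and -0.89. Tff3, a trefoil peptide of mucus, was at -1.95 and -2.25 in FeD and -2.14 and -2.62 in FeO. Agr2, which folds mucins, was lower by at least 3.14-fold in FeD and at least 3.24-fold in FeO. The mucin gene Muc2 was at -0.32 and 0.22 in FeD and -0.18 and 0.08 in FeO, so it had no direction. The list's summed intensity is set by Zg16, which is also a protein of acinar zymogen granules, and was 296826 to 469331 in FeA, 491640 and 339643 in FeD, and 430613 and 291914 in FeO. Zg16 had the highest mean ratio of the list in FeD, at 0.70 and -0.36, and was at 0.55 and -0.68 in FeO, where the mean of Muc2 was highest.

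Of 11 crypt and Paneth cell genes, the defensin gene Defa24 was at -1.66 and -1.61 in FeD and -1.53 and -1.39 in FeO. The matrix protease Mmp7 was higher in FeD, at 1.22 and 0.83, and at least 4.05-fold lower in FeO. Ang, a ribonuclease, was at -0.92 and -0.50 in FeD and -1.51 and -0.99 in FeO, where Smoc2, a matrix protein of crypts, had the highest mean at 0.40 and -0.26. Of the 8 enteroendocrine genes, 4 were tested in FeD and 6 in FeO. Among those tested, 0 were at -1 or lower in FeD and 1 in FeO, the gut and islet peptide Pyy at -1.08 and -0.98. Pyy was also the lowest in FeD, at -0.61 and -0.78. The highest were the cholecystokinin gene Cck in FeD, at 0.06 and -0.01, and in FeO Tph1, of serotonin synthesis, at 0.13 and 0.34 near the background. The trefoil peptide Tff1, of the stomach list, was at -3.05 and -2.68 in FeD and -3.01 and -2.49 in FeO. It was the only one at -2 or lower among 11 genes of that list on the array, of which 5 were tested in each comparison. The other stomach genes past the filter did not move alike. Ctse, an aspartic protease, was at 0.63 and 0.58 in FeD, the highest of the list, and at -0.85 and -1.02 in FeO. The trefoil peptide Tff2 was at -0.14 and -0.85 in FeD and at -0.99 on the 1 array that measured it in FeO. The pepsinogen gene Pgc was at -0.32 and -0.09 in FeD and -0.21 and 0.23 in FeO, and the proton pump gene Atp4a, highest in FeO, was at 0.04 and 0.32 in FeD and 0.04 and 0.34 in FeO. Gkn1, Gkn2 and Muc5ac, which define gastric surface cells, were not well above background in any channel.

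Regulators of gut epithelium were measured with less range, since several stood close to the background. Of 16 transcription factor genes on the array, 12 were tested in each comparison and 0 were at -1 or lower in FeD or FeO. The list medians were -0.10 and -0.03, the latter 0.045 without normalization within the array. Cdx2, the homeobox factor that defines intestinal epithelium, was well above background in FeA alone, at a level of 6.56 to 6.80. Its ratio was -0.33 and -0.03 in FeD and -0.59 and -0.46 in FeO, and no size of change could be measured so near the background. Cdx1, its relative, was at 0.16 and 0.16 in FeD and 0.07 and 0.20 in FeO. Hnf4a, a nuclear receptor of gut and liver, was at 0.06 and -0.12 in FeD and -0.16 and 0.12 in FeO. Foxa3, a forkhead factor, had the lowest mean of the list in FeD, at -0.04 and -0.43, and Gata4 the highest in both, at 0.02 and 0.73 in FeD and 0.01 and 0.91 in FeO.

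**Figure D5:**
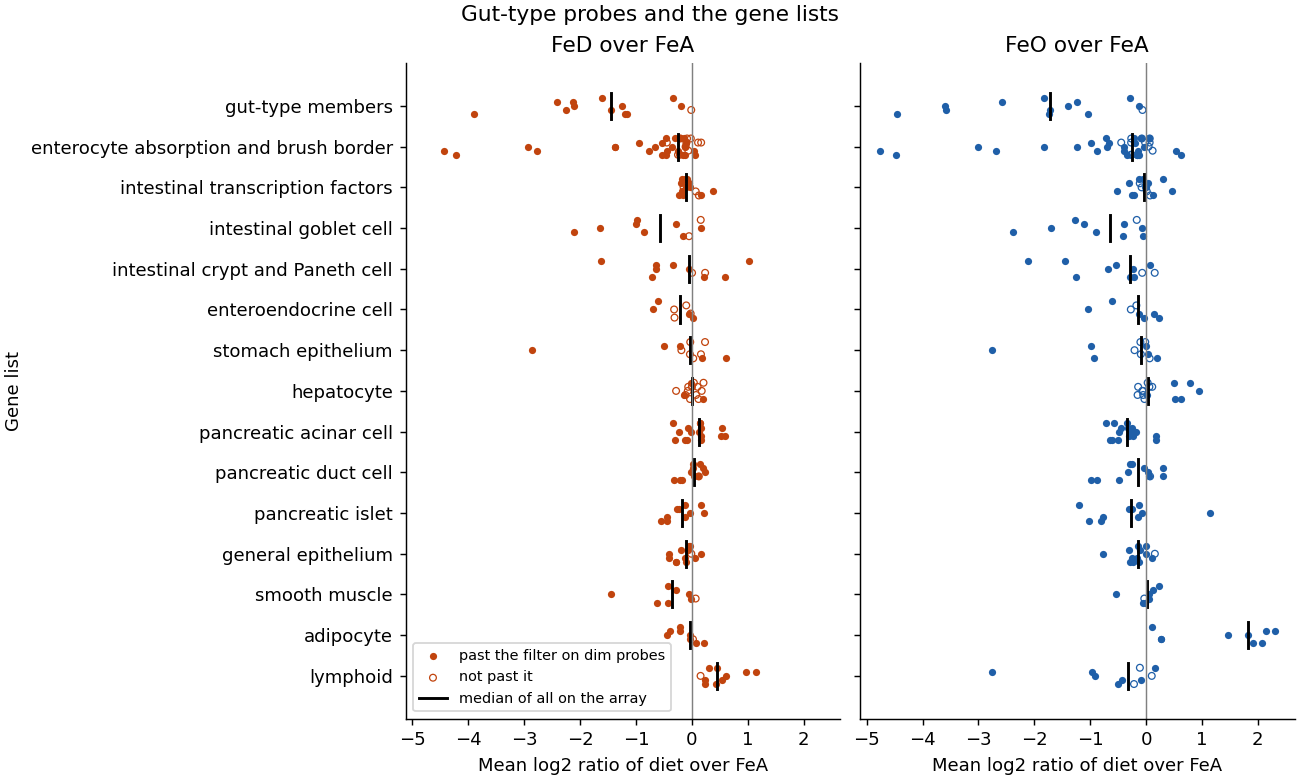
Mean log2 ratio of diet over FeA (x axis) of the 13 gut-type probes and of every gene on the array of 14 marker lists (y axis), FeD on the left and FeO on the right, with filled points past the filter on dim probes, open points not past it and a black line at the median. A gene measured on 1 array is drawn at that value, and a few genes of the enterocyte, goblet and stomach lists lie far below their own list medians, while the adipocyte list lies at a median of 1.83 in FeO.

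Epithelium as a whole was not lower to this extent. Of 13 general epithelial genes, such as the adhesion gene Epcam at -0.36 and -0.21 in FeD and -0.49 and 0.01 in FeO, 0 were at -1 or lower in either comparison. The medians were -0.10 in FeD and -0.14 in FeO, the latter 0.033 without normalization within the array. The lowest in FeD was Cldn7, a claudin of cell junctions, at -0.62 and -0.20, with -0.39 and -0.13 in FeO. The lowest in FeO was the keratin gene Krt18, at -0.79 and -0.77, with -0.37 and -0.44 in FeD. The highest were the junction gene Tjp3 in FeD, at -0.06 and 0.40, and the protease inhibitor gene Spint2 in FeO, at -0.21 and 0.41. Of 12 duct genes 0 were at -1 or lower, with medians of 0.03 and -0.14, and the lowest was Krt19, a keratin of ducts, at -0.58 and -0.08 in FeD and -1.27 and -0.69 in FeO. The highest were the transcription factor genes Sox9 in FeD, at 0.42 and 0.05, and Onecut1 in FeO, at 0.22 and 0.39. Of 15 hepatocyte genes, 2 (Alb and Serpina1) were well above background in FeA on all 4 arrays, and Fgb, Fga, Tat, Tdo2, Cyp2c11 and Mup4 were so in no channel. The albumin gene Alb was at 0.45 and -0.05 in FeD and 0.68 and 0.56 in FeO. Of that list 0 genes were at -1 or lower, among 3 tested in FeD and 6 in FeO. Serpina1 was the lowest, at -0.24 and -0.05 in FeD and -0.23 and 0.28 in FeO, and the cytochrome gene Cyp2e1 was the highest in FeO, at least 1.93-fold higher than in FeA. Of the acinar genes 0 were at -1 or lower, among 16 tested in FeD and 11 measured on both arrays in FeO. The lowest was Ptf1a, a factor of acinar identity, at -0.30 and -0.36 in FeD and -0.76 and -0.66 in FeO, and the highest Ctrb1, a chymotrypsinogen gene, at 0.70 and 0.50 in FeD and 0.32 and 0.05 in FeO. The acinar median was 0.14 in FeD and -0.33 in FeO, and the latter turned to 0.11 with median centring and 0.23 without normalization within the array.

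Marker lists of other tissues differed between the pools too. In FeO pancreas 3 of 9 adipocyte genes were at 2 or higher, where 0.0546% of the probes tested were. The fat cell hormone gene Adipoq was at 1.97 and 2.17 and the protease gene Cfd (adipsin) at 2.20 and 2.41, with Car3, a carbonic anhydrase gene, at 2.04 and 2.25. In FeD the same list ran from the resistin gene Retn, at -0.24 and -0.63, to Adipoq, at 0.17 and 0.26, and its lowest in FeO was the leptin gene Lep, at -0.11 and 0.31. The summed intensity of the adipocyte list was 9946 to 12648 in FeA, 10217 and 9071 in FeD, and 40890 and 40125 in FeO. All 9 lymphoid genes past the filter in FeD were above 0 on both arrays, where 24.9% of the probes tested were. The list median was 0.44. Ms4a1 and Cd2 passed that filter through their FeD signal alone, because their FeA signal lay near the background. For these genes the filter itself favoured a ratio above 0, so nothing is read from the count of 9. The list's sum was 3816 to 4371 in FeA, 7855 and 6626 in FeD, and 2056 and 2259 in FeO. Glycam1, a ligand on the vessels of lymph nodes, had the highest FeA level of the list and so weighs most in that sum. Its ratio was 1.44 and 0.85 in FeD and -2.65 and -2.86 in FeO. The lowest lymphoid gene in FeD was Cd2, at 0.25 and 0.23, and the highest in FeO was Madcam1, at 0.18 and 0.14. Of 8 smooth muscle genes 1 was at -1 or lower in FeD, Actg2, the actin of gut-type smooth muscle, at -1.64 and -1.24, with -0.81 and -0.28 in FeO. Its highest were Acta2 in FeD, at 0.48 and -0.52, and the desmin gene Des in FeO, at -0.20 and 0.68. The smooth muscle list's sum was 8266 to 9829 in FeA, 4766 and 5424 in FeD, and 7021 and 8341 in FeO. Actg2 had the highest FeA level of that list and weighs most in the sum, which does not speak for the list. Islet genes had medians of -0.17 and -0.28, with FeO means from -1.20 for Ppy, the pancreatic polypeptide gene, to 1.14 for the glucagon gene Gcg. In FeD the lowest islet gene was Iapp, of amylin, at -0.60 and -0.49, and the highest was Gcg, at 0.34 and 0.08. The part of these other cell types in the gut-type ratios was not tested.

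The genes whose 4 ratios lay nearest to the median profile of the 12 gut-type probes past the filter were sought among 16939 other probes tested. That profile was -1.64 and -1.48 in FeD and -1.75 and -1.71 in FeO. The nearest were Agr2, with a mean absolute difference of 0.085 over the 4 arrays, guanylin (0.16) and Defa24 (0.17). They were followed by Dusp6, a phosphatase that acts on ERK kinases (0.20), Slc25a35, a mitochondrial carrier (0.20), Cryl1, a crystallin-like sugar dehydrogenase (0.21), LOC688542 (0.34) and Mogat2 (0.34). Dusp6 was at -1.18 and -1.46 in FeD and -1.60 and -1.87 in FeO, and was well above background in both diets. Of these 8 genes 4 (Agr2, Guca2a, Defa24 and Mogat2) stood in the gut lists above, and the likeness is a description over 4 arrays that share the FeA pool.

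The file headers give the 4 arrays 1 slide and 1 scan, while the labels number them as slides 1 to 4. Median spot signals were 115 to 222.5 over median backgrounds of 50 to 87, and 61.9% to 71.5% of the 42877 gene spots were well above background in a channel. Each member probe has 1 spot per array, and no member spot was marked as an outlier.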

How the data were processed

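The authors pooled RNA of 6 rats per diet and hybridised it to Agilent 4x44K rat arrays. The deposited intensity values, which Feature Extraction (version 10.1.1.1) wrote per the file headers, are median spot and local background signals and processed signals. In R 4.3.3 with limma 3.58.1, median signals were background-corrected (normexp, offset 50) and loess-normalized within each array. Control spots had weight 0 in loess, outlier spots were left out (722, 938, 764 and 735 per array), and spots of a probe were averaged. Log2 ratios were turned to diet over FeA by the labelled dyes and averaged over the 2 arrays. Levels are log2 channel intensities after quantile scaling of average intensities between arrays. Median signals were taken because mean signals are not among the deposited columns.

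A probe was tested if more than 50% of its spots were well above background in a diet on both arrays. The size criterion was a mean log2 ratio of 2 in size with 1 sign. No test was possible with 1 pool per diet. The steps were tested on simulated data. Probes were named by RefSeq accession (18004) or the deposited tables (4945), and 7418 had neither. The fold changes, p-values and q-values in the authors' tables were not used.

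The member genes and gene lists were chosen with earlier results of these data known. Named were all members, the lowest and highest genes of each list, those reaching the size criterion, and the 8 genes nearest in profile. Genes named beyond that rule were chosen after their values were seen. Alternatives were the background correction, normalization, filters, outlier spots, size criterion, each array alone and the methods' t-test.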

Additional observations from a re-analysis of the deposited data

How the results depend on the processing

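The diets have no replicate pools, so the alternatives show the effect of processing and of the dye swap alone. Against the reported member counts at -2 or lower (5 in FeD, 4 in FeO) and member medians (-1.45 and -1.73), normexp with an offset of 0 gave 9 and 7 probes and medians of -2.42 and -2.45. The processed signals gave 9 and 8 probes and medians of -2.98 and -3.50. Without background subtraction the medians were -1.35 and -1.54. The FeO median was -1.69 with median centring and -1.57 without normalization within the array, and the FeD median was -2.12 over probes well above background in both diets. With 1 array each, the count was 3 to 5 in FeD and 4 in FeO, the medians were -1.58 to -1.44 in FeD and -1.68 to -1.65 in FeO, and FeD array 1 carried the calls of Tm4sf5 and the Lgals4 probe that array 2 alone left above -2. At -1 or lower stood 10 probes in each comparison. Over all probes, 17 in FeD and 25 in FeO were at -2 or lower and 3 and 10 at 2 or higher. These became 28, 42, 3 and 29 with an offset of 0, and 63, 90, 7 and 62 by the processed signals. With a criterion of 1 they became 43, 91, 21 and 113, and 1 array each gave 9 to 22 at 2 or higher in FeO, with 22 on array 2 alone. The methods' t-test, which compares the pools over repeat arrays, kept the reported counts at -2 or lower and at 2 or higher at the methods' threshold. It left 0 in each of these, members included, after Benjamini-Hochberg adjustment. Before adjustment and with no size criterion it called 1091 probes in FeD and 1459 in FeO, of which 9 and 10 were member probes. The members were picked from these ratios and the t-test runs over repeat arrays of the same pools. Nothing is therefore read from the member calls. The member probes kept the sign of their ratio in 11 to 13 of 13 cases under every alternative run on ratios. Of the list medians, the FeO ones turned sign for the acinar list (0.11 with median centring, 0.23 without normalization), the transcription factors (0.045) and general epithelium (0.033) without normalization, and the hepatocyte list (-0.10 by the processed signals). The causes were not tested. No paired analysis was possible because the 2 arrays of a comparison repeat the same pools.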
